A study of Arabidopsis thaliana with 24 samples.

Results

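The enzymes described here reduce or degrade glutathione, or use ascorbate that glutathione helps to recycle. They are 5 probe sets of 22746 on the array that are not Affymetrix controls, chosen by name as 1 probe set for each of 5 genes. Earlier results of these data were known at this choice, so counts of members beside all probe sets are descriptions alone. GR1 (AT3G24170) and GR (AT3G54660, also called GR2) encode the glutathione reductases of Arabidopsis. SAPX (AT4G08390) and TAPX (AT1G77490) encode the ascorbate peroxidases of the chloroplast stroma and of the thylakoid membrane. AT1G44790 (GGCT2;3) encodes a gamma-glutamyl cyclotransferase of the ChaC type. Each gene had 1 probe set with this gene name, so no second probe set could be set beside it.

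The plants were wild-type Arabidopsis thaliana Columbia-0, grown 3 to a pot in soil between layers of vermiculite, with 16 h of light at 22 °C. Once a week from week 1 to week 5 a pot took up 25 ml from below, which was water for the control, GSSG (glutathione disulfide, the oxidized form) at 1 mM, GSH (the reduced thiol) at 2 mM, or NH4NO3 at 3 mM. The harvest at 3 weeks (3W) took the shoot with its apex, and those at 4 weeks (4W) and 5 weeks (5W) took fully expanded leaf blades, the second and the third of a plant. The 3 harvests and 4 waterings gave 12 groups with 2 arrays each, 24 in all. The labels do not say whether the 2 replicates came from separate pots, and the p-values cover the spread of these samples alone, possibly a technical one. In these bulk samples fewer cells of a type and less RNA per cell cannot be told apart. The organ changes together with the age between 3W and 4W, and the effects of these cannot be told apart. Between all harvests, 4W and 5W among them, the number of weekly feedings rises with the age, and each harvest has its own replicates. These effects cannot be told apart from that of age either.

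In the ascorbate-glutathione cycle, ascorbate peroxidases reduce hydrogen peroxide with ascorbate. The oxidized ascorbate is recycled by monodehydroascorbate reductases, or by dehydroascorbate reductases that spend GSH, and glutathione reductases turn the resulting GSSG back into GSH with NADPH. GR1 works in the cytosol and peroxisomes and GR in chloroplasts and mitochondria. ChaC-type cyclotransferases cleave glutathione itself and so lie on the path of its breakdown.

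Signals are linear array intensities on which every array had been scaled to a trimmed mean near 500, with array medians from 155 to 194. Among the markers with a gene name, the mesophyll genes RCA and SBPASE had signals of at least 10448 and 3742 on every array. The root hair genes EXPA7 and EXPA18 reached at most 63.3 and 94.4 on any array. CLV3, a stem cell gene of the shoot apex, lay between 4.45 and 38.6 at 3W, a low signal, and no other apex marker on the list had a named probe set. The 4 arrays of replicate 2 at 4W stood apart in the ratio of 3' to 5' actin signal, a measure of RNA quality, at 4.29 to 4.81 against 2.65 to 3.80 on the other 20 arrays.

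**Figure D1:**
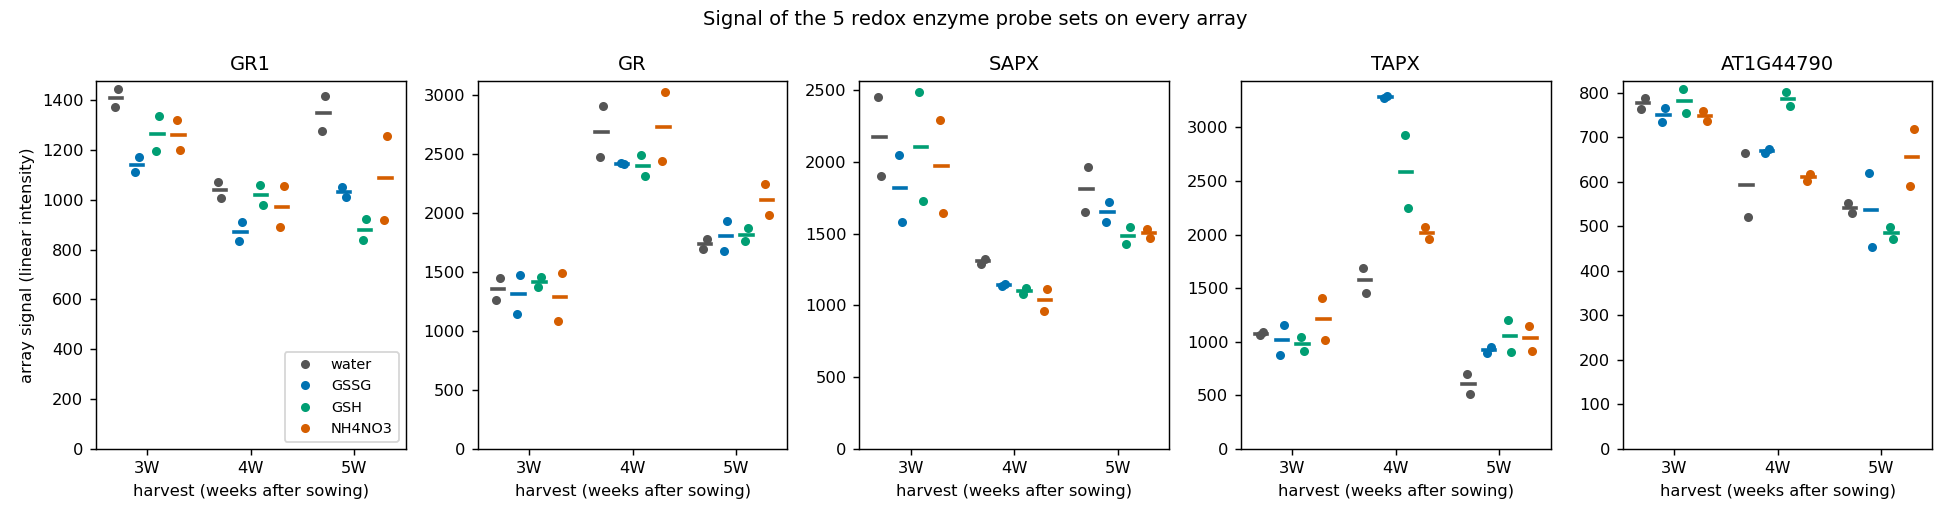
Signal of GR1, GR, SAPX, TAPX and AT1G44790 (linear intensity, vertical axis from 0) at 3W, 4W and 5W. Points are single arrays, bars the mean of the 2 arrays of a group, and colours the watering. TAPX reaches 3294 in a 4W GSSG array and is lowest, at 516, in a 5W water array.

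TAPX, the thylakoid ascorbate peroxidase, had the widest range of the 5 genes and was higher in the leaf blades of fed plants than in those of watered plants at both ages. At 4W its signals were 1690 and 1454 with water, 3277 and 3294 with GSSG, 2925 and 2250 with GSH, and 2074 and 1959 with NH4NO3. All 6 fed arrays lay above both water arrays, and the share of all probe sets higher without overlap was 16.5% with GSSG, 12% with GSH and 13.2% with NH4NO3. The group means stood in the order GSSG (3286 ± 12.0, SD, n = 2), GSH (2588 ± 477), NH4NO3 (2017 ± 81.4) and water (1572 ± 167), and no array crossed into a neighbouring group. Replicate 1 alone gave the same order as both. The share of all probe sets with all groups of a harvest apart in this way was not computed. At 5W the signals were 695 and 516 with water, 894 and 949 with GSSG, 1203 and 903 with GSH, and 1147 and 916 with NH4NO3. Again all 6 fed arrays lay above both water arrays, but the 3 fed groups overlapped with each other. Here 17.1%, 20.2% and 17.4% of all probe sets were higher without overlap.

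Of the 6 comparisons of TAPX with water in leaf blades, 1 passed limma's test over all probe sets. With NH4NO3 at 5W TAPX rose by 0.76 ± 0.20 (log2 change ± SE on log2(signal + 16), adjusted p = 0.048), which is 1.69-fold. The change was 0.78 ± 0.20 with GSH at 5W (adjusted p = 0.0517) and 0.61 ± 0.20 with GSSG at 5W (adjusted p = 0.409). At 4W it was 1.06 ± 0.20 with GSSG (adjusted p = 0.0544), 0.71 ± 0.20 with GSH (adjusted p = 0.346) and 0.36 ± 0.20 with NH4NO3 (adjusted p = 0.809). Between the fed groups of 4W, GSSG stood above GSH by 0.355 ± 0.197 and GSH above NH4NO3 by 0.345 ± 0.197. Neither of these steps passed (limma, adjusted p = 0.785 and 0.735). With the replicate number as a block within harvest, the change with GSSG at 4W passed (1.06 ± 0.17, adjusted p = 0.00833). So did the change with GSH at 5W (0.78 ± 0.17, adjusted p = 0.011). Changes of nearly one size had different adjusted p in these comparisons, which differ in the share of all probe sets called: 2.22% were called with NH4NO3 at 5W, 1.49% with GSH and 0.22% with GSSG. At 4W the share called was 0.0484% with GSSG, 0.0044% with GSH and 0.0132% with NH4NO3. The 3 comparisons at a harvest share their water arrays. The call with NH4NO3 at 5W was lost without 5W NH4NO3 replicate 1 (0.60, adjusted p = 0.388), without 5W control replicate 2 (0.55, adjusted p = 0.471) and without 5W NH4NO3 replicate 2 (0.92, adjusted p = 0.0537). The adjusted p with GSH at 5W passed without 5W control replicate 1 (0.99, adjusted p = 0.0464) and without 5W GSH replicate 2 (0.99, adjusted p = 0.0479).

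In the aerial parts of 3W TAPX showed no such order. Its signals were 1065 and 1087 with water, 879 and 1159 with GSSG, 1047 and 913 with GSH, and 1404 and 1015 with NH4NO3. The GSSG and NH4NO3 arrays lay on both sides of water, and both GSH arrays lay below it, as for 14.3% of all probe sets. The changes were -0.09 ± 0.20, -0.14 ± 0.20 and 0.15 ± 0.20 with GSSG, GSH and NH4NO3 (adjusted p = 1, 1 and 1), and 0% of probe sets were called in each of these comparisons.

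**Figure D2:**
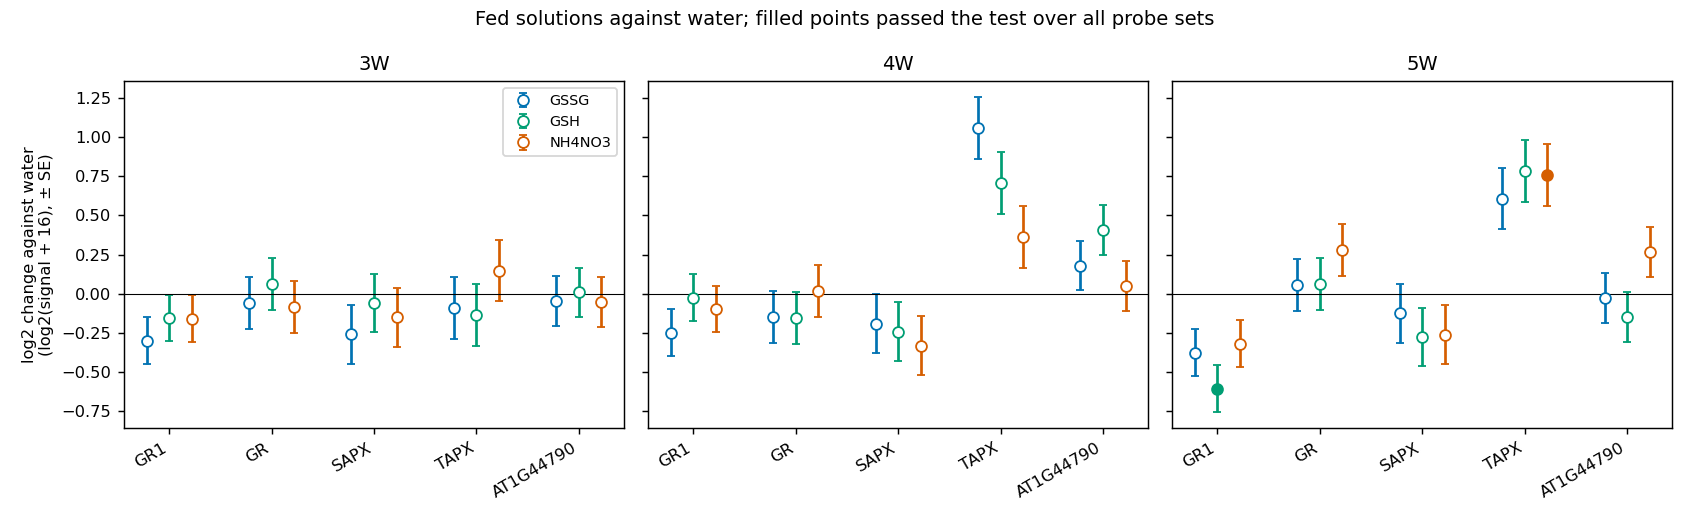
Log2 change of each gene against water (vertical axis, log2(signal + 16), ± SE) with GSSG, GSH and NH4NO3 at 3W, 4W and 5W. Filled points passed the test over all probe sets. TAPX lies above 0 in all 6 comparisons of leaf blades, and GR1 lies below 0 in all 9 comparisons.

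SBPASE, a Calvin cycle enzyme gene, is one of the mesophyll markers whose values are given beside TAPX. Its changes against water at 4W were 0.81 ± 0.19 with GSSG, 0.52 ± 0.19 with GSH and 0.05 ± 0.19 with NH4NO3, and at 5W they lay between -0.02 and 0.07. RCA, the activase of Rubisco, lay between -0.08 and 0.18 at 4W and between -0.27 and -0.25 at 5W. WRKY53, a transcription factor gene of early senescence, was at -1.23 ± 0.38 with GSSG at 4W and at 1.33 ± 0.38 with NH4NO3 at 5W. WRKY6, the other senescence marker with a name here, lay between -0.16 and -0.07 at 4W and between -0.05 and 0.47 at 5W. None of these 4 markers passed against water at 4W or 5W (adjusted p from 0.0765 to 0.998). The part of such markers in the TAPX values was not tested.

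SAPX, the stromal counterpart of TAPX, was on the lower side of water in fed leaf blades, by changes that did not pass. At 4W its signals were 1290 and 1324 with water, 1135 and 1149 with GSSG, 1083 and 1121 with GSH, and 962 and 1116 with NH4NO3. All 6 fed arrays lay below both water arrays, beside 18.8%, 21.1% and 17.4% of all probe sets lower without overlap with GSSG, GSH and NH4NO3. The changes were -0.19 ± 0.19, -0.24 ± 0.19 and -0.33 ± 0.19 (adjusted p = 0.794, 0.788 and 0.814). At 5W the signals were 1652 and 1967 with water, 1582 and 1724 with GSSG, 1428 and 1544 with GSH, and 1533 and 1471 with NH4NO3. The GSSG arrays overlapped with water, and the GSH and NH4NO3 arrays lay below it, as for 22.8% and 24.4% of all probe sets. The changes were -0.13 ± 0.19, -0.28 ± 0.19 and -0.26 ± 0.19 (adjusted p = 0.963, 0.606 and 0.611). At 3W both replicates of each group lay far apart, 2451 and 1905 with water and 2489 and 1727 with GSH, and replicate 1 was the higher array in all 4 waterings.

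GR1, the cytosolic and peroxisomal glutathione reductase, lay below water without overlap in 7 of 9 comparisons, of which 1 passed. At 5W its signals were 1278 and 1416 with water, 1052 and 1012 with GSSG, 837 and 921 with GSH, and 919 and 1257 with NH4NO3. All 6 fed arrays lay below both water arrays, and the NH4NO3 arrays were far from each other. At 5W 21.9%, 22.8% and 24.4% of all probe sets were lower without overlap with GSSG, GSH and NH4NO3. GR1 passed with GSH at 5W, where it fell by 0.61 ± 0.15 (log2, adjusted p = 0.0458), to 0.657 of the water level. The changes with GSSG and NH4NO3 at 5W were -0.38 ± 0.15 and -0.32 ± 0.15 (adjusted p = 0.588 and 0.363). The call was lost without any 1 of its 4 arrays. Without GSH replicate 1 of 5W the change was -0.54 (adjusted p = 0.397), and without GSH replicate 2 it was -0.67 (adjusted p = 0.102). Without water replicate 1 of 5W it was -0.68 (adjusted p = 0.0935), and without water replicate 2 it was -0.53 (adjusted p = 0.355).

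The same side of water held for GR1 in most of the other comparisons, with smaller changes. At 3W the signals were 1372 and 1446 with water, 1113 and 1170 with GSSG, 1194 and 1337 with GSH, and 1322 and 1200 with NH4NO3, and all 6 fed arrays lay below water, beside 13.2%, 14.3% and 13.1% of all probe sets. At 4W they were 1070 and 1005 with water, 833 and 909 with GSSG, 1059 and 980 with GSH, and 889 and 1056 with NH4NO3. Both GSSG arrays of 4W lay below water, beside 18.8% of all probe sets, and the GSH and NH4NO3 arrays overlapped with water. The changes at 3W and 4W ran from -0.30 ± 0.15 with GSSG at 3W to -0.03 ± 0.15 with GSH at 4W (adjusted p from 0.611 to 1). GSSG is the solution whose GR1 arrays lay below water at all 3 harvests, a pattern that 0.554% of all probe sets showed. Over the mean of harvests GR1 was at -0.31 ± 0.09 with GSSG, -0.26 ± 0.09 with GSH and -0.19 ± 0.09 with NH4NO3 (adjusted p = 0.339, 0.287 and 0.479).

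GR, the chloroplast and mitochondrial glutathione reductase, did not follow GR1. At 5W its signals were 1692 and 1779 with water, 1676 and 1934 with GSSG, 1764 and 1868 with GSH, and 2245 and 1981 with NH4NO3. The NH4NO3 arrays were above water, as for 17.4% of all probe sets, and the others overlapped with it. Its changes at 5W were 0.05 ± 0.17, 0.06 ± 0.17 and 0.28 ± 0.17 (adjusted p = 0.99, 0.934 and 0.513). At 4W the signals were 2470 and 2904 with water, 2424 and 2413 with GSSG, 2493 and 2309 with GSH, and 2437 and 3021 with NH4NO3. Both GSSG arrays lay just below water, by -0.15 ± 0.17 (adjusted p = 0.83), beside 18.8% of all probe sets lower without overlap. At 3W the changes lay between -0.09 and 0.06. Whether GR and GR1 differ in their response to feeding was not tested.

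AT1G44790, the glutathione-degrading cyclotransferase, had its highest 4W signals with GSH. They were 665 and 521 with water, 664 and 675 with GSSG, 802 and 771 with GSH, and 603 and 618 with NH4NO3. Both GSH arrays lay above all other 4W arrays, a pattern whose share of all probe sets was not computed. Against water alone, 12% of all probe sets were higher with GSH without overlap. The change with GSH was 0.41 ± 0.16 (adjusted p = 0.512). At 5W the signals were 552 and 529 with water, 619 and 454 with GSSG, 499 and 471 with GSH, and 590 and 720 with NH4NO3. Here the GSH arrays lay below water (-0.15 ± 0.16, adjusted p = 0.781) and the NH4NO3 arrays above it (0.27 ± 0.16, adjusted p = 0.516). Without overlap 22.8% of all probe sets were lower with GSH and 17.4% were higher with NH4NO3. The change of the GSH effect from 4W to 5W was -0.56 ± 0.23 and did not pass (adjusted p = 0.484). At 3W all 8 arrays lay between 735 and 809.

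Over the 9 comparisons with water the 5 genes gave 45 changes, of which 2 passed. Every array of one side lay beyond every array of the other in 25 of them, 9 higher with feeding and 16 lower. GR1 accounted for 7 of the lower and SAPX for 5, and TAPX for 6 of the 9 higher. Groups of 2 separate often: with GSSG, GSH and NH4NO3 the share of all probe sets that did not overlap was 31.3%, 30.5% and 31.3% at 3W, 35.3%, 33.1% and 30.7% at 4W and 39.1%, 43% and 41.7% at 5W. By direction, 12% to 20.2% of all probe sets were higher and 13.1% to 24.4% lower without overlap in a given comparison. At 3W no member was higher without overlap, beside 18.1%, 16.2% and 18.2% of all probe sets. At 3W limma called 0 of 5 members with each solution, and 0 of 5 had an unadjusted p under 0.05, which 2.63%, 2.22% and 2.69% of all probe sets had. At 4W limma called 0 of 5 with each solution, beside 0.0484% of all probe sets with GSSG, 0.0044% with GSH and 0.0132% with NH4NO3. Before adjustment 1 member was under 0.05 there with GSSG, 2 with GSH and 0 with NH4NO3, beside 9.83%, 8.16% and 6.59% of all probe sets. At 5W limma called 0 of 5 with GSSG, 1 of 5 with GSH and 1 of 5 with NH4NO3, beside 0.22%, 1.49% and 2.22% of all probe sets. Before adjustment 2 members were under 0.05 with each solution, beside 6.94%, 12.1% and 13.2% of all probe sets. Over the mean of harvests 0 of 5 passed with each solution, beside 0.0044%, 0.259% and 0.484% of all probe sets called. Before adjustment 2, 2 and 3 members were under 0.05, beside 7.2%, 8.93% and 9.61% of all probe sets.

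GSSG and GSH were fed at equal glutathione units, as a disulfide and as the thiol that it yields. Between them limma called 0 of 5 members over the mean of harvests and at each harvest, and 0 of 5 had an unadjusted p under 0.05. The share of all probe sets called was 0% over the mean, 0% at 3W, 0.00879% at 4W and 0% at 5W, and 3.82%, 2.9%, 6.77% and 3.93% had an unadjusted p under 0.05. For TAPX the difference of GSSG from GSH was 0.36 ± 0.20 at 4W (95% interval -0.06 to 0.77, adjusted p = 0.785) and -0.18 ± 0.20 at 5W (-0.59 to 0.24, adjusted p = 1). For GR1 it was -0.22 ± 0.15 at 4W (-0.54 to 0.09, adjusted p = 0.825) and 0.23 ± 0.15 at 5W (-0.08 to 0.54, adjusted p = 1). For AT1G44790 it was -0.23 ± 0.16 at 4W (-0.56 to 0.10, adjusted p = 0.834). These intervals leave room for differences in either direction. Against NH4NO3, limma called 0 of 5 members with GSSG or GSH at any harvest or over their mean. With GSSG 0.158% of all probe sets were called over the mean, 0% at 3W, 0.211% at 4W and 0.0879% at 5W, and with GSH 0.215%, 0.0044%, 0.185% and 0.044%. TAPX with GSSG at 4W and AT1G44790 with GSH at 4W and 5W were the members with an unadjusted p under 0.05. In these 8 comparisons 7.85%, 3.2%, 10% and 5.93% of all probe sets had such a p with GSSG, and 6.83%, 2.59%, 7.74% and 6.23% with GSH. At 4W TAPX was higher with GSSG than with NH4NO3 by 0.70 ± 0.20 (95% interval 0.29 to 1.11, adjusted p = 0.173), in both arrays, as for 18.4% of all probe sets. At 5W AT1G44790 was lower with GSH than with NH4NO3 (-0.42 ± 0.16, adjusted p = 0.676), in both arrays, as for 15.2% of all probe sets.

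Between the harvests of leaf blades 4 of the 5 genes changed, 3 falling and SAPX rising. From 4W to 5W, over the mean of the 4 waterings, TAPX fell by 1.36 ± 0.10 (log2, adjusted p = 9.95e-09) and GR by 0.45 ± 0.08 (adjusted p = 0.00032). SAPX rose by 0.48 ± 0.09 (adjusted p = 0.000484). AT1G44790 fell by 0.26 ± 0.08 (adjusted p = 0.0175), and GR1 was at 0.14 ± 0.07 (adjusted p = 0.188). For TAPX, GR and SAPX both arrays of one age lay beyond both of the other in each of the 4 waterings, which 12.2% of all probe sets showed. In this comparison 4 of 5 members passed, beside 29.7% of all probe sets. The mean signals of the members lay at percentiles 76.8 to 92.1 of all probe sets, so that share includes many dimmer ones. Arrays with the same replicate number deviated together in part within a harvest (r 0.17 to 0.31 at 4W and 0.09 to 0.28 at 5W). The fit took the arrays of a harvest as independent, so the p-values of all comparisons between harvests may be too small. AT1G44790 lost its call without 4W control replicate 1 (-0.22, adjusted p = 0.0541) and without 5W GSSG replicate 2 (-0.20, adjusted p = 0.0624). GR1 passed without 5W NH4NO3 replicate 1 (0.19, adjusted p = 0.0484). Without the 4 arrays of replicate 2 at 4W, TAPX was at -1.44 ± 0.12, GR at -0.40 ± 0.10 and SAPX at 0.52 ± 0.12 (adjusted p = 8.13e-07, 0.0071 and 0.00414).

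Within single waterings the fall of TAPX from 4W to 5W passed in all 4. The log2 change was -1.36 ± 0.20 with water (adjusted p = 0.000157), -1.82 ± 0.20 with GSSG (adjusted p = 1.67e-05), -1.29 ± 0.20 with GSH (adjusted p = 0.00143) and -0.96 ± 0.20 with NH4NO3 (adjusted p = 0.0134). The share of probe sets called in these comparisons was 10.6%, 12.5%, 4.34% and 2.43%. The fall with GSH lost its call without 5W GSH replicate 2 (-1.08, adjusted p = 0.0614). The fall with NH4NO3 lost it without 4W NH4NO3 replicate 1 (-0.92, adjusted p = 0.0952) and without 5W NH4NO3 replicate 2 (-0.81, adjusted p = 0.264). Differences between the waterings in this fall were tested as the change of a solution's effect between 4W and 5W. For TAPX they were -0.45 ± 0.28 with GSSG, 0.08 ± 0.28 with GSH and 0.40 ± 0.28 with NH4NO3 (adjusted p = 0.815, 0.97 and 0.833). For no member did this test pass with any solution, beside 0.00879%, 0.154% and 0.171% of all probe sets called. Before adjustment 0, 2 and 0 of 5 were under 0.05, beside 6.65%, 8.43% and 7.5% of all probe sets.

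The other genes changed less within single waterings. GR fell with water by 0.62 ± 0.17 (adjusted p = 0.0199), from 2687 ± 307 to 1735 ± 61.4. Its changes with GSSG, GSH and NH4NO3 were -0.42, -0.40 and -0.36, each ± 0.17 (adjusted p = 0.105, 0.187 and 0.279). The call with water was lost without 4W control replicate 2 (-0.51, adjusted p = 0.163), 5W control replicate 1 (-0.59, adjusted p = 0.0948) and 5W control replicate 2 (-0.66, adjusted p = 0.0914). SAPX was higher at 5W by 0.42 to 0.53 in the 4 waterings, and none of these passed alone (adjusted p from 0.0716 to 0.213). AT1G44790 fell with GSH by 0.68 ± 0.16 (adjusted p = 0.0179), from 787 ± 21.9 to 485 ± 19.5. This call was lost without 4W GSH replicate 1 (-0.65, adjusted p = 0.163), 5W GSH replicate 1 (-0.72, adjusted p = 0.0552) and 5W GSH replicate 2 (-0.64, adjusted p = 0.205).

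**Figure D3:**
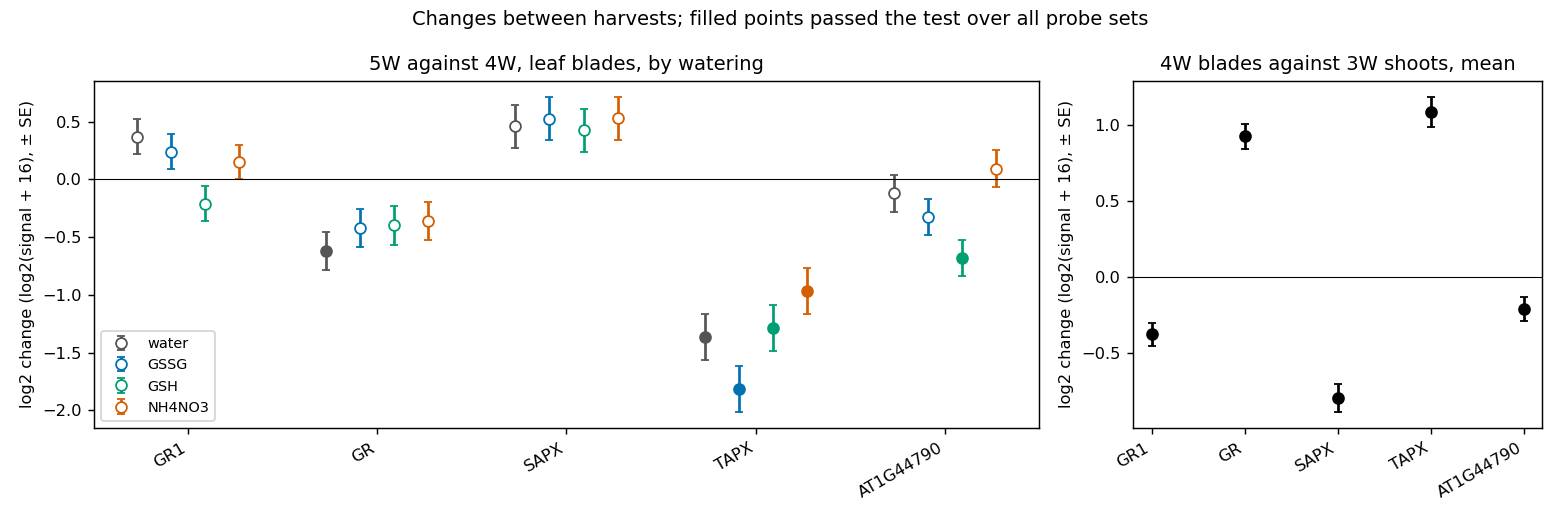
Log2 change of each gene between harvests (vertical axes, log2(signal + 16), ± SE), on the left 5W against 4W leaf blades in each watering and on the right 4W blades against 3W shoots over the mean of waterings. Filled points passed the test over all probe sets; TAPX passed in all 4 waterings on the left, and all 5 genes passed on the right.

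Between the aerial parts of 3W and the leaf blades of 4W all 5 genes passed, beside 55.9% of all probe sets. TAPX rose by 1.09 ± 0.10 (adjusted p = 6.30e-09) and GR by 0.93 ± 0.08 (adjusted p = 5.44e-09), while SAPX fell by 0.79 ± 0.09 (adjusted p = 2.96e-07) and GR1 by 0.38 ± 0.08 (adjusted p = 0.000201). For these 4 genes no array of one harvest crossed an array of the other within a watering, as for 38.1% of all probe sets. AT1G44790 fell by 0.21 ± 0.08 (adjusted p = 0.0325), and its arrays overlapped. Centring each array on its median raised all changes of this comparison by 0.18, and AT1G44790 was then at -0.03 ± 0.09 (adjusted p = 0.79). It also lost its call under quantile normalization (-0.17, adjusted p = 0.0769). Leaving out 1 array ended it for 8 arrays: replicate 1 with GSH and with NH4NO3 and replicate 2 with water and with GSSG at 3W, and replicate 1 with GSSG and with NH4NO3 and replicate 2 with water and with GSH at 4W (adjusted p from 0.0511 to 0.0986).

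The order of the 12 groups shows the same shape. TAPX was highest in the 4 groups of 4W and lowest in 5W water, and 5 of its 11 neighbouring groups in this order were apart in all arrays. GR was highest in the 4 groups of 4W, followed by the 4 of 5W and the 4 of 3W, and 7 of 11 neighbours overlapped. SAPX ran from the 4 groups of 3W through 5W to 4W, with 7 of 11 neighbours overlapping. GR1 was highest in 3W water and 5W water (1409 ± 52.8 and 1347 ± 97.5) and lowest in 4W GSSG and 5W GSH (871 ± 54.1 and 879 ± 59.1), with 10 of 11 neighbours overlapping. AT1G44790 was highest in 4W GSH and the 4 groups of 3W and lowest in 5W GSH, with 10 of 11 overlapping. How many neighbours are apart for all probe sets was not computed, so these counts are not read as particular to the members. From its lowest to its highest array TAPX spanned 6.38-fold, GR 2.79-fold, SAPX 2.59-fold, AT1G44790 1.78-fold and GR1 1.74-fold.

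Across the 12 group means, which share the 3 harvests, the members correlated in both directions. Pearson's r was -0.92 between GR and SAPX, -0.78 between SAPX and TAPX, -0.69 between GR1 and GR and -0.62 between GR1 and TAPX. It was 0.81 between GR1 and SAPX and 0.63 between GR and TAPX. AT1G44790 had an r between -0.36 and 0.43 with the others.

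**Figure D4:**
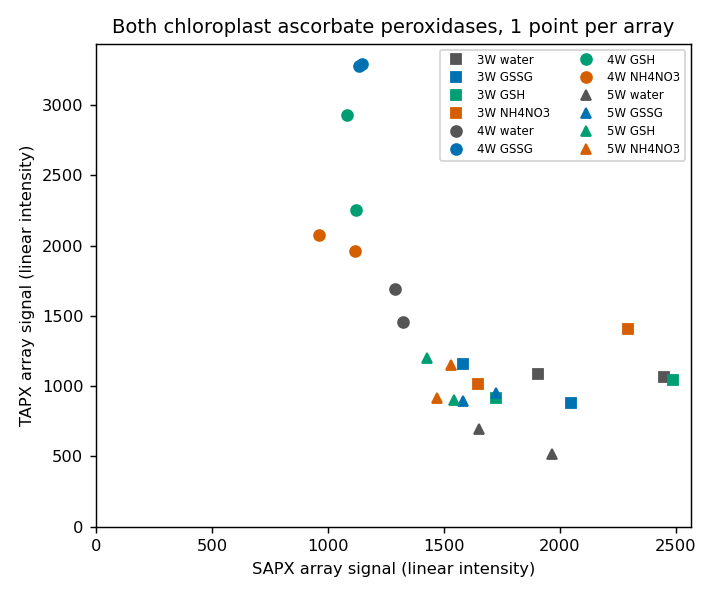
Signal of TAPX (vertical axis, linear intensity) against SAPX (horizontal axis, linear intensity), 1 point per array, with harvest as shape and watering as colour. The 4W arrays lie at low SAPX (962 to 1324) and high TAPX (1454 to 3294), and the 3W and 5W arrays at higher SAPX.

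Among 8400 other probe sets with 1 gene and enough signal, those most like each member over the 12 group means were named by Pearson's r. For TAPX they were AT5G08050 (0.977), PSB27 (0.963), AT4G02530 (0.959), AT2G32500 (0.957) and AT4G33660 (0.956). For SAPX they were AT1G51310 (0.990), AT1G02370 (0.976), LSM3B (0.974), NRPB6A (0.970) and AT5G61220 (0.969). For GR they were TRM26 and AT3G51510 (both 0.981), AT5G62720 and AT5G45170 (both 0.979) and AT5G35970 (0.978). The most opposite probe sets went nearly as far, with AT2G36930 at -0.988 to GR, AT1G23230 at -0.981 to TAPX and AT5G59250 at -0.976 to SAPX.

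GR1 and AT1G44790, which varied least, had less close companions. For GR1 they were AT3G24150 (0.948), NCRK (0.913), LpxA (0.903), AT5G05990 (0.892) and AT1G53200 (0.888), and for AT1G44790 they were AT4G29520 (0.919), AT5G54970 (0.911), AT5G09240 and AT1G62520 (both 0.910) and MPPBETA (0.909). AT3G24150 lies beside GR1 on the chromosome with 1 protein-coding gene between them, as the TAIR10.1 annotation orders the genes. The other genes within 3 places of GR1 that had a named probe set were AT3G24140 (-0.475), AT3G24180 (-0.558), AT3G24190 (-0.549) and AT3G24200 (0.347). This position was looked up after the correlation was seen. The most opposite were AT3G06150 to GR1 (-0.918) and AT5G49710 to AT1G44790 (-0.947).

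Of 76 genes listed for the cycle, for glutathione and ascorbate metabolism and for related peroxide defence, 17 had a probe set with 1 gene name, of which 12 are not among the 5 members. The 12 hold 1 gene of the cycle (MDAR2), 4 of ascorbate synthesis, 5 of the peroxiredoxin list and 2 oxidative stress reporters. They hold 0 genes of glutathione synthesis, degradation and transport, and 0 of glutathione peroxidases, superoxide dismutases and catalases. Limma called 0 of these 12 against water with each solution at each harvest, beside 0% to 2.22% of all probe sets. Between 0 and 4 of the 12 had an unadjusted p under 0.05, beside 2.22% to 13.2% of all probe sets. These ranges pool the comparisons, and the highest count is a larger share of the 12 than any of these percentages. The median change of the 12 lay between -0.17 and 0.20, where the median of all probe sets lay between -0.07 and 0.02. The chloroplast peroxiredoxin gene 2CPA was above water in every fed array at 4W and 5W. Its 4W means followed the TAPX order (16323 with GSSG, 15274 with GSH, 14215 with NH4NO3, 10648 with water). MDAR2, GME, NTRC and SRX were below water in every fed array at 5W, and NTRC also at 3W. By solution and harvest, 12% to 20.2% of all probe sets were higher and 13.1% to 24.4% lower without overlap. The share for all solutions together was not computed.

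From 4W to 5W 3 of the 12 rose and 5 fell, beside 16.1% of all probe sets that rose and 13.6% that fell. Their median change was -0.07, beside -0.01 for all probe sets. MDAR2, a monodehydroascorbate reductase that recycles ascorbate, rose by 1.11 ± 0.14 (adjusted p = 4.80e-06), from a median of 1706 over the 8 arrays of 4W to 4205 at 5W. Sulfiredoxin (SRX), which repairs overoxidized peroxiredoxin, rose by 0.60 ± 0.09 (adjusted p = 6.38e-05). ZAT10, a zinc finger gene known as a reporter of light and oxidative stress, rose by 2.40 ± 0.29 (adjusted p = 4.09e-06), from a median of 326 to 1962. The chloroplast peroxiredoxin genes 2CPA (-1.02 ± 0.11, adjusted p = 8.94e-07) and PRXIIE (-0.76 ± 0.12, adjusted p = 4.44e-05) fell. So did NTRC, the chloroplast thioredoxin reductase that reduces 2CPA (-0.56 ± 0.06, adjusted p = 2.47e-06), and VTC4 of ascorbate synthesis (-0.52 ± 0.09, adjusted p = 0.00014). The mitochondrial PRXIIF fell as well (-0.22 ± 0.07, adjusted p = 0.0243).

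From 3W to 4W 5 of the 12 rose and 5 fell, in a comparison where 26.3% of all probe sets rose and 29.7% fell. Their median change was -0.02, beside 0.03 for all probe sets. SRX rose by 1.95 ± 0.10 (adjusted p = 4.31e-13), and ZAT10 (2.84 ± 0.29), PRXIIF (0.69 ± 0.07), MDAR2 (0.56 ± 0.14) and GalDH (0.45 ± 0.07) rose. UPOX (-1.05 ± 0.14), PRXIIE (-0.90 ± 0.12), GME (-0.45 ± 0.07), VTC4 (-0.38 ± 0.09) and GLDH (-0.33 ± 0.09) fell. These 10 genes had adjusted p of at most 0.00259. GME, GalDH and GLDH are enzymes of ascorbate synthesis and went different ways. SBPASE (1.32 ± 0.09), RCA (1.44 ± 0.13), WRKY53 (1.56 ± 0.19) and WRKY6 (0.82 ± 0.20) rose and CLV3 (-0.59 ± 0.23) fell between these harvests (adjusted p of at most 0.0358). From 4W to 5W SBPASE fell by 1.00 ± 0.09 (adjusted p = 1.96e-07), and RCA was at -0.33 ± 0.13 and WRKY53 at 0.20 ± 0.19 (adjusted p = 0.0694 and 0.484). The part of these markers in the changes of the members was not tested.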

How the data were processed

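RNA from 24 samples was hybridized to 1 Affymetrix array each, after 100 ng of total RNA had been amplified from the 3' end, per the labels' protocols. Each deposited value is the linear intensity of 1 probe set, made with Affymetrix Expression Console per the submitters' processing notes. The version and the algorithm were not given in the sources used here. On every array the mean after trimming 2% at each end was 500.044 to 500.055, so no normalization was added. From these intensities log2(signal + 16) was computed, which understates changes at low signal. All 22746 probe sets other than 64 controls were fitted without a filter, with 1 mean per group over all 24 arrays, in limma 3.58.1 (R 4.3.3; intensity trend, 12 residual and 7.39 prior degrees of freedom). Benjamini-Hochberg adjustment ran over all 22746 in each comparison, and an adjusted p under 0.05 was called. The number of arrays limits the precision.

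Genes were named through the platform annotation and the TAIR10.1 reference: 13513 probe sets had 1 gene (13436 matched), 503 several and 8730 none here. No sequence was used, and no coordinates are printed. All 5 members are named in every comparison. Listed genes are named where they passed, up to 4 per list and comparison by p, a limit passed between harvests where all that changed are named. Against water, other redox genes with every fed array of a harvest on 1 side of water are also named, a rule added after the data were seen. For each member the 5 most alike of the probe sets with a group mean above the 40th percentile are named. Members and lists were chosen with earlier results of these data known. Replicate pairs correlated at 0.955 to 0.977 and 0 pairs of arrays were identical. Alternatives were other scalings, filters, pseudocounts of 1 and 64, other priors, a replicate block, fewer arrays and, added after the data were seen, leaving out the 4 arrays of replicate 2 at 4W together. Tables and plots used matplotlib 3.10.9, numpy 2.4.6 and pandas 2.3.3 in Python 3.11.15.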

Additional observations from a re-analysis of the deposited data

Results flagged for a closer look

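For TAPX with GSH, both fed arrays lay below water at 3W (-0.14 log2) and above it at 4W (0.71) and 5W (0.78). The differences of 3W from 4W and from 5W were not tested. For AT1G44790 with GSH, both fed arrays lay above water at 4W (0.41) and below it at 5W (-0.15). The test of that difference gave -0.56 ± 0.23 and did not pass (limma, adjusted p = 0.484). For AT1G44790 with NH4NO3, both fed arrays lay below water at 3W (-0.053) and above it at 5W (0.27), a difference that was not tested. For GR1, both 5W arrays lay above those of 4W with water (0.37) and with GSSG (0.24) and below them with GSH (-0.21). The test of water against GSH gave -0.58 ± 0.21 and did not pass (limma, adjusted p = 0.419), and GSSG against GSH was not tested. With 2 arrays a group, 30.5% to 43% of all probe sets did not overlap in a given comparison with water. Between 4W and 5W the share was 50.3% with water, 54% with GSSG and 48.2% with GSH.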

How the results depend on the processing

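Of the 5 members, the count called with GSH at 5W (1) was 0 with centring on array medians, without an intensity trend and with only the groups compared. It was 2 with the low filter and with a pseudocount of 1. With a robust prior it was 1 again, but GR1 lost its call (adjusted p = 0.0615) and TAPX gained one (adjusted p = 0.0494). With NH4NO3 at 5W the count of 1 was 0 with centring, a pseudocount of 64, no trend and only the groups compared. With GSSG at 4W the count of 0 was 1 (TAPX) with the low filter (adjusted p = 0.0462) and the robust prior (adjusted p = 0.0387). From 4W to 5W the count with water (2) was 1 with no trend, with only the groups compared and without the 4 arrays of replicate 2 at 4W. With GSH (2) it was 1 with no trend and 0 with only the groups compared, and with NH4NO3 (1) it was 0 with both. Leaving out 1 array gave counts of 0 to 1 with GSH and with NH4NO3 at 5W, 1 to 2 from 4W to 5W with water, 0 to 2 with GSH and 0 to 1 with NH4NO3. The cause was not tested, other than that fewer arrays leave fewer degrees of freedom. The low filter leaves fewer probe sets to adjust over.

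Same-numbered arrays of a harvest deviated together in part (r 0.04 to 0.20 at 3W, 0.17 to 0.31 at 4W and 0.09 to 0.28 at 5W). All 6 pairs of groups at 4W and 5 of 6 at 3W and at 5W were over 0.1, against 3 of 48 pairs from different harvests. The sample titles also give each replicate set of a harvest 1 further number, whose meaning is not stated. As r was not over 0.1 in every pair, the block was kept as an alternative, and whether the numbers mark shared cultures or handling was not tested. With the replicate block within harvest the count was 1 with GSSG at 4W (TAPX, adjusted p = 0.00833), 2 with GSH at 5W, 1 with each solution over the mean of harvests (TAPX, adjusted p = 0.0221, 0.0242 and 0.0288 with GSSG, GSH and NH4NO3), and 3 with GSSG and 2 with NH4NO3 from 4W to 5W. SAPX then passed in all 4 waterings (adjusted p from 0.00272 to 0.0204). In a comparison of harvests the block takes the spread between replicate sets out of the error, although that spread counts there. The adjusted p of the calls gained from 4W to 5W may therefore be too small, and no conclusion is drawn from them. Over all probe sets the block raised the count with GSH at 5W from 338 to 897 and with NH4NO3 at 5W from 504 to 1080. No change that was called reversed its sign under any alternative run.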
